A study of Mus musculus with 4 samples.

Results

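The genes described here are the mouse olfactory receptor genes (Olfr) and the vomeronasal receptor genes of both families (Vmn1r and Vmn2r). A gene counted as a member when its symbol starts with 1 of these names and its window, from 1000 bp upstream of the transcription start site (TSS) to the gene end, held at least 1 CpG site read 20 times or more in all 4 tumors. Of the 1972 receptor genes of the annotation, 150 met that rule, among 25428 genes of any kind that could be tested. The members were 92 of 1407 Olfr genes (6.54%), 16 of 327 Vmn1r genes (4.89%) and 42 of 238 Vmn2r genes (17.6%). By biotype, 122 members were protein-coding, and the other 28 were pseudogenes or, for Vmn2r-ps111, a processed transcript. None of the 10 receptor genes on chromosome X had such a site, so every methylation value of the members comes from autosomes.

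The assay was RRBS, a form of bisulfite sequencing that reads CpGs next to CCGG sites, and the samples were bulk tumors of the mouse lung adenocarcinoma line 344SQ. Cells of the parental line 344SQP or of 344SQR, a variant resistant to anti-PD1, were injected under the skin of the leg of female 129Sv/Ev mice aged 12 to 16 weeks. Every mouse of both groups received anti-PD1 at 10 mg/kg, in 4 doses from day 4, and tumors were taken 24 hours after the last dose. Each line had 2 tumors and untreated tumors are not analysed here, so a difference between the lines is one between treated tumors, and the effect of the antibody was not tested. Bulk tumors mix tumor cells with host cells of the same strain, and the shares of tumor and host cells cannot be told apart from a change of methylation within either.

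Olfactory receptors are odorant receptors of the nose, and each olfactory neuron expresses a single one of them from a single allele. Vomeronasal receptors serve the detection of pheromones and related cues; the Vmn1r proteins have a short extracellular end and the Vmn2r proteins a long one that binds peptides and proteins. The genes lie in large clusters of tandem copies, in CpG-poor, late-replicating and mostly silent chromatin outside these neurons. Such chromatin belongs to the parts of the genome that are only partly methylated in many tumors.

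The files listed 2770733 and 2695851 CpG sites for the 344SQP tumors, replicates 1 and 2, and 3772295 and 6377285 for the 344SQR tumors. These held 116794455, 138331886, 160548303 and 174689402 CpG calls in the same order. At the 644 receptor sites the median coverage was 80, 93.5, 108.5 and 102 reads, against 98, 112, 130 and 133 at all qualified sites. Coverage ranged from 20 to 485 reads at receptor sites, and at 20 reads a single read moves a site by 5 percentage points. Reads carry no molecular identifiers, so intervals and tests on reads cover counting error only. The tumor 344SQR replicate 2 stood apart from the other 3: it listed the most sites and had the lowest methylation in 121 of the 150 receptor genes, as it did in 13475 of all 25428 genes. Results are therefore also given without it.

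Few receptor genes can be read by this assay. The windows of all receptor genes held 4.65 CpGs per kb, against 10.3 in other protein-coding genes. A CCGG was present in 64.7% of the receptor windows and in 97.5% of those of other protein-coding genes. For promoters, from 1000 bp upstream to 500 bp downstream of the TSS, the shares were 24.9% and 87.3%. The members themselves were denser than the rest of their families, with 6.01 CpGs per kb against 4.34 in the other receptor genes. A member had a median of 3 qualified sites, against 28 over all genes tested. A single site stood for 46 members, and 77 members had 3 or more. The sites of 79 members lay behind 1 CCGG fragment end, so the sites of such a gene are read from the same fragments and are not independent.

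Gene by gene, the mean methylation of the 150 members was 79.7% and 77.7% in the 344SQP tumors and 68.9% and 57.8% in the 344SQR tumors. Both 344SQR tumors lay below both 344SQP tumors. The line means were 78.7% ± 1.43 (SD, 2 tumors) and 63.3% ± 7.88 (SD, 2 tumors), a difference of -15.3 percentage points that exceeded the spread within either line. An exact permutation test over the 4 tumors gave a two-sided p of 0.333, the smallest that 2 tumors against 2 allow, so no single value here can reach 0.05 by that test. The median member changed by -13.1 points and the median of all genes tested by -1.12 points. The mean was lower in 344SQR for 138 members and higher for 12. Among all 25428 genes it was lower for 19796 and higher for 5619. In 344SQP replicate 1, 96 members were over 80% methylated, and in replicate 2 83 were. The counts fell to 51 and 39 in the 344SQR tumors, while members under 50% numbered 11 and 13 in 344SQP and 30 and 56 in 344SQR.

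**Figure D1:**
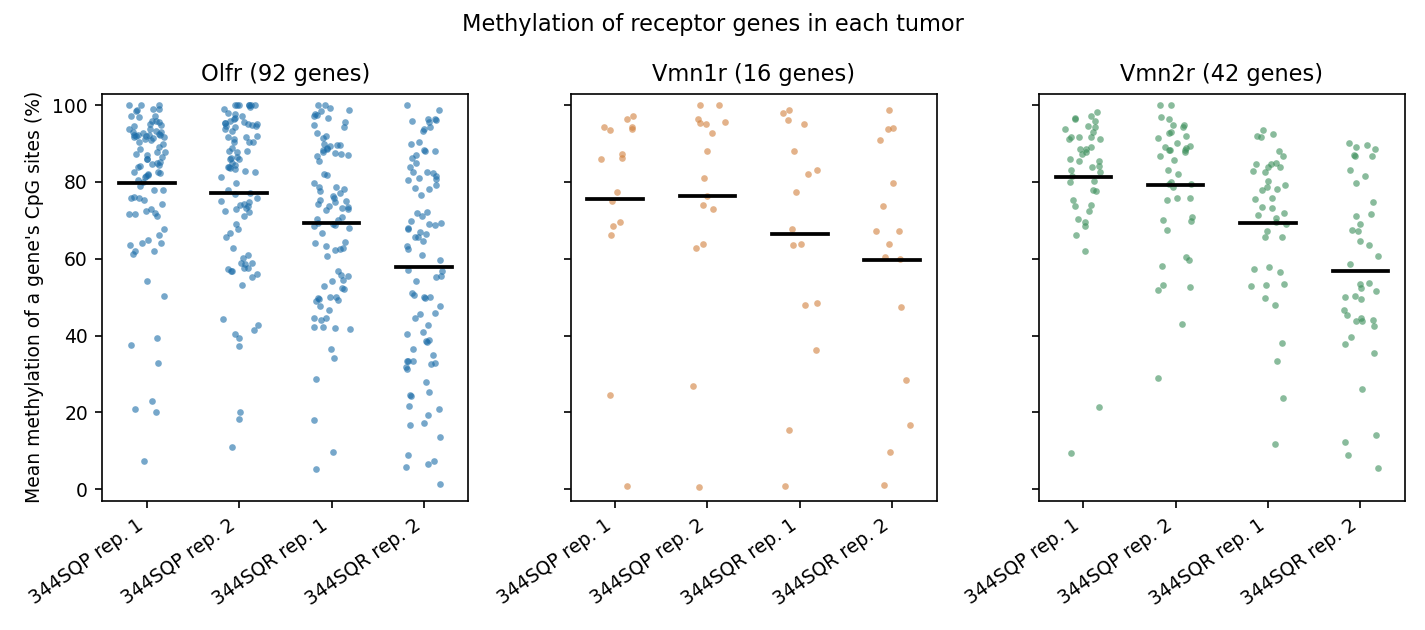
Mean methylation in percent (vertical axis) of each receptor gene in each of the 4 tumors, by family; a point is a gene and a bar the mean over genes. In every family the bars of both 344SQR tumors lie below those of both 344SQP tumors, and replicate 2 of 344SQR is the lowest.

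A likelihood ratio test per site on the reads of each line, combined per gene by Stouffer's z score and adjusted over all 25428 genes, called 115 members lower in 344SQR. Among all genes, 49.5% were called lower. It called 5 members higher, where 7.17% of all genes were higher, and 30 members in neither direction. Members with both 344SQR tumors below both 344SQP tumors numbered 102, where 45.9% of all genes had this order. The reverse order was seen in 3 members, against 5.06% of all genes. That test pools the reads of each line and ignores the spread between its tumors. A test that uses the spread, edgeR's quasi-likelihood test on reads per gene without a replicate block, called 0 of 150 members lower and 0 higher at an adjusted p under 0.05, and also 0% of all genes. Its smallest adjusted p for a receptor gene was 0.363 in edgeR. At an unadjusted edgeR p under 0.05 it had 44 members lower and 1 higher, where 12.2% of all genes were lower and 0.445% higher. The edgeR log2 fold change was below 0 in 141 members, with a median of -1.21. With a replicate block, edgeR called 55 members lower and 0 higher, where 17.2% of all genes were lower and 1.85% higher. The labels do not tie the replicate numbers to a shared batch.

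Without 344SQR replicate 2, the likelihood ratio test called 91 members lower and 3 higher, where 42.7% of all genes were lower. Of the 91, 87 were also among the 115. Replicate 1 of 344SQR lay below both 344SQP tumors in 106 members, and 57.9% of all genes showed that order. The median member then changed by -8.14 points and the median gene by -0.923. For 344SQR replicate 2 the median distance from the 344SQP mean was -17.8 points. The direction is thus shared by both 344SQR tumors, and the size differs between them.

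Counted by site, the 644 receptor sites averaged 68.6% and 67.7% in 344SQP and 61.1% and 53.7% in 344SQR, a difference of -10.7 points (exact permutation p 0.333). Of these sites, 479 were lower in 344SQR and 131 higher. The site mean is pulled down by 99 sites that also lie in promoters of other genes, 63 of them in the window of Vmn1r4 alone. The other 545 sites averaged 75.6%, 74.5%, 67.3% and 58.9% in the order of the tumors. Sites methylated at 80% or more made up 57.0% and 55.0% of receptor sites in 344SQP and 42.1% and 34.3% in 344SQR. At the low end, sites under 20% made up 17.5%, 16.1%, 17.9% and 26.4%, so only 344SQR replicate 2 gained many of them.

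Whether receptor genes differ from the rest of the genome was asked at sites of other genes outside promoters and at intergenic sites. Sites of other genes averaged 46.4% and 48.5% in 344SQP and 44.5% and 43.7% in 344SQR, a change of -3.35 points. Intergenic sites averaged 66.2%, 65.5%, 60.6% and 53.7%, a change of -8.62 points. Within each tumor, receptor sites exceeded those of other genes by 22.2 and 19.2 points in 344SQP and by 16.7 and 9.95 points in 344SQR. That gap changed by -7.39 points between the lines (exact permutation p 0.333). The gap to intergenic sites was 2.41, 2.26, 0.485 and -0.0478 points, a change of -2.12 (exact permutation p 0.333). Both comparison classes leave out promoters, while the receptor sites here include the 99 in promoters of other genes. Without those, the gap changed by -8.60 points against sites of other genes and by -3.33 against intergenic sites (exact permutation p 0.333 for each). The receptor sites then still included those in the receptor genes' own promoters.

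CpG density differs between these classes, so sites outside promoters of other genes were compared by the number of CpGs up to 250 bp on either side, the site itself included. With 1 to 5 CpGs, the 77 receptor sites averaged 76.4% and 75.9% in 344SQP and 62.4% and 50.0% in 344SQR, so the line means went from 76.1% to 56.2%. At that density sites of other genes changed by -10.5 points and intergenic sites by -14.7. With 6 to 10 CpGs the changes were -15.7 points at receptor sites, -8.33 at sites of other genes and -11.5 at intergenic sites. With 11 to 20 CpGs they were -9.42, -5.68 and -8.44. Over 20 CpGs they shrank to -3.99, -0.281 and -2.19. The receptor sites fell the most in each band. Over 20 CpGs the lines overlapped in both comparison classes (exact permutation p 1 at other genes and 0.667 at intergenic sites). Against intergenic sites, the change of the gap was -5.26 points with 1 to 5 CpGs, -4.19 with 6 to 10 and -0.979 with 11 to 20 (exact permutation p 0.333 for each).

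**Figure D2:**
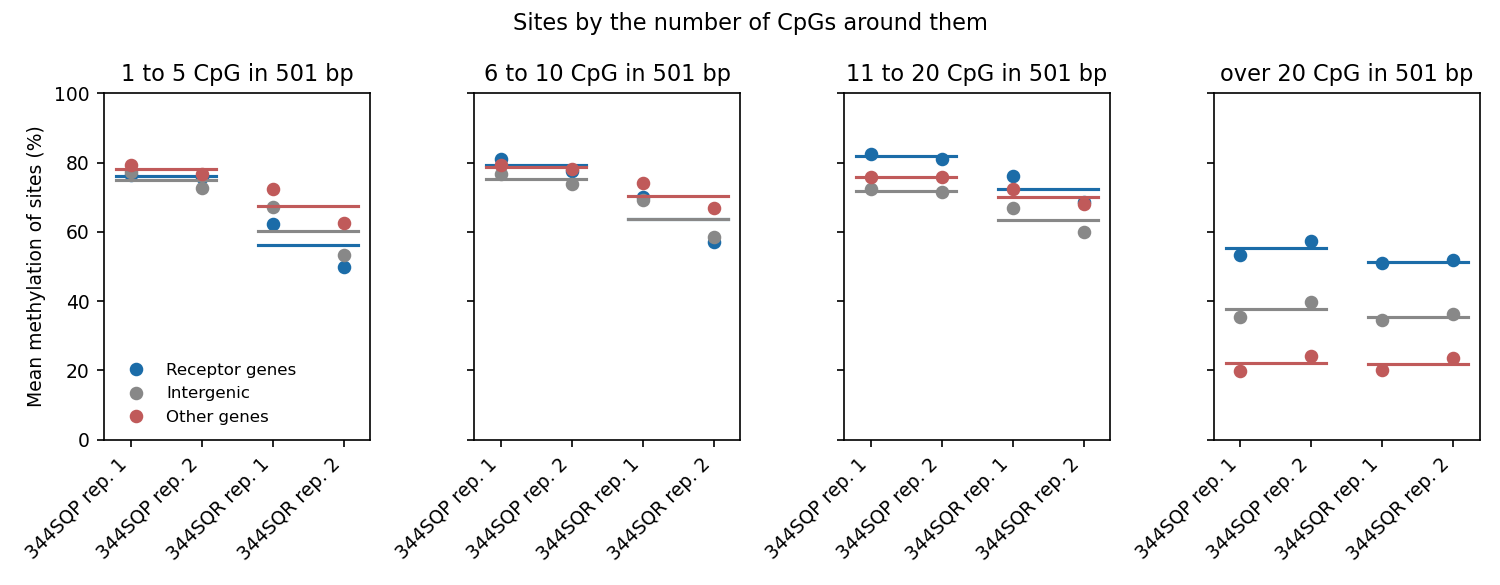
Mean methylation in percent (vertical axis) of CpG sites outside promoters of other genes in the 4 tumors, in panels by the number of CpGs up to 250 bp on either side; points are tumors, lines the means of a line. Receptor sites went from 76.1% to 56.2% in the sparsest panel and changed by -3.99 points in the densest.

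The same gradient ran among the members. The 37 members with a median of up to 5 CpGs around their sites had a median change of -19.2 points, the 59 with 6 to 10 had -14.2, the 42 with 11 to 20 had -9.06 and the 12 above that had -5.83. Across the 150 members, Spearman's rho between the change and the local CpG count was 0.435; genes are not independent replicates, and this is a description only. Distance to the next CpG showed it too. Receptor sites with no other CpG within 35 bp went from 76.9% and 74.6% in 344SQP to 63.3% and 47.4% in 344SQR, a change of -20.4 points at 113 sites. With 3 or more other CpGs in that reach the change was -4.74 points at 207 sites. For the same 2 kinds of site, intergenic sites changed by -13.3 and -4.53 points and sites of other genes by -9.27 and -1.04. By the bases next to the CpG, the change at receptor sites was -13.4 points with A or T on both sides (52 sites). It was -10.4 with A or T on 1 side (116 sites) and -12.2 with C or G on both sides (377 sites). In the same order, the changes were -11.1, -8.38 and -8.41 points at intergenic sites and -5.69, -3.17 and -3.16 at sites of other genes. RRBS favors C and G beside the CpG because the CCGG site itself supplies them, which leaves few sites with A or T on both sides.

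Genes were also grouped by their mean over the 4 tumors, which includes the 344SQR values, so the level in 344SQP is not held fixed. From 0 to 20%, 5 receptor genes had a median change of -10.6 points and the other genes -0.243. From 20 to 40%, 6 receptor genes had -4.70 and the others -1.66, and 33.3% of the receptor genes were called lower against 60.4% of the others. In the remaining groups, from low to high, receptor genes were called lower more often. The shares were 80% against 27.2%, 93.9% against 65.3%, 89.4% against 77.5% and 61.0% against 53.8%. From 40 to 60%, the 33 receptor genes had a median change of -23.1 points and the other genes -3.53. In that group the receptor genes averaged 71.3% and 60.7% in the 344SQP tumors, and the other genes 51.4% and 54.6%. From 60 to 80% the medians were -17.9 points for 47 receptor genes and -10.5 for the others. From 80 to 100% they were -6.64 for 59 receptor genes and -3.61 for the others. Across the 150 members, Spearman's rho between the change and the 344SQP mean was 0.191 and Pearson's r -0.0394, again a description only. Whether the level in 344SQP accounts for the larger falls than in other genes was not tested.

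All families fell. The 92 Olfr genes averaged 79.7% and 77.2% in 344SQP and 69.2% and 57.9% in 344SQR, with 66 called lower and 3 higher. For the 16 Vmn1r genes the means were 75.7%, 76.3%, 66.4% and 59.6%, with 11 lower and 2 higher. The 42 Vmn2r genes averaged 81.2%, 79.1%, 69.3% and 56.7%, with 38 lower and 0 higher. Of all genes, 49.5% were called lower and 7.17% higher. The changes of the gene means were -14.9, -13.0 and -17.1 points, and differences between families were not tested. Olfr genes of class I, the fish-like receptors that surround the beta-globin genes on chromosome 7, numbered 12 members of 156 annotated. Their 45 sites averaged 90.5% and 88.9% in 344SQP and 82.9% and 76.6% in 344SQR, a change of -9.97 points. The 311 sites of the other Olfr genes changed by -10.5 points from lower levels of 67.3% and 67.9% in 344SQP. By gene the order was the other way, with a change of the gene mean of -15.6 points in class I and -14.8 in the other Olfr genes, and the difference was not tested. Of the 28 members that are not protein-coding, 22 were called lower. Their gene mean changed by -16.8 points against -15.0 for coding members, and their median gene by -10.5 points against -13.4; the difference was not tested.

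Levels differed by position inside the gene, and every position was lower in both 344SQR tumors. Coding exons, at 133 sites, averaged 79.7% and 79.8% in 344SQP and 70.1% and 64.1% in 344SQR. Introns, at 246 sites, averaged 83.0%, 79.4%, 73.4% and 62.4%. Other exons, at 162 sites, averaged 62.2%, 63.2%, 57.1% and 50.3%. Sites upstream of the TSS averaged 29.8%, 31.4%, 26.7% and 24.8%, and the 40 of them outside promoters of other genes 69.9%, 74.3%, 62.7% and 57.4%. The low upstream mean therefore comes from the promoters of neighbours, and most values in receptor genes describe gene bodies rather than promoters.

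Repeats make up more of the receptor sites than of the comparison classes. Outside promoters of other genes, 39.4% of receptor sites lay in masked repeats, against 5.80% of sites of other genes and 24.2% of intergenic sites. Masked receptor sites averaged 84.9% and 81.3% in 344SQP and 75.7% and 63.8% in 344SQR, a change of -13.4 points, and unmasked ones changed by -11.0. Intergenic sites changed by -11.8 points in masked repeats and by -7.60 outside them. At sites of other genes these changes were -5.91 and -3.20 points. In 46 members all sites lay in masked repeats, and their median change was -18.1 points. The 74 members with no masked site had a median change of -11.6 points. Since receptor genes are tandem copies, the converted read sequence behind each site was searched among all CCGG ends of the genome. Of 637 sites within reach of such an end, 633 had a sequence found once. Those 633 changed by -10.7 points, the same as all receptor sites.

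Receptor genes whose neighbours lie within 1 Mb were joined into 94 clusters, of which 41 held a member. The mean was lower in 344SQR in 38 of the 41, and in 36 both 344SQR tumors lay below both 344SQP tumors. Over clusters the median change was -12.6 points. In 33 clusters with enough sites between the receptor windows, those sites had a median change of -10.5 points, and the receptor sites of the same clusters had -13.0. The receptor sites fell further than the sites between windows in 19 of these 33. Sites within 1 Mb outside the clusters had a median change of -3.82 points, and the receptor sites fell further than these in 33 of 41 clusters. Pooled over clusters, the sites between windows averaged 65.9% and 65.4% in 344SQP and 60.5% and 54.2% in 344SQR. The flanking sites averaged 48.4%, 50.1%, 46.4% and 45.1%. The changes were -8.30 points between windows, -3.53 in the flanks and -4.68 at sites farther away. These classes differ in CpG density, with medians of 17, 22 and 18 CpGs around a site, and the comparison is not matched for it.

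**Figure D3:**
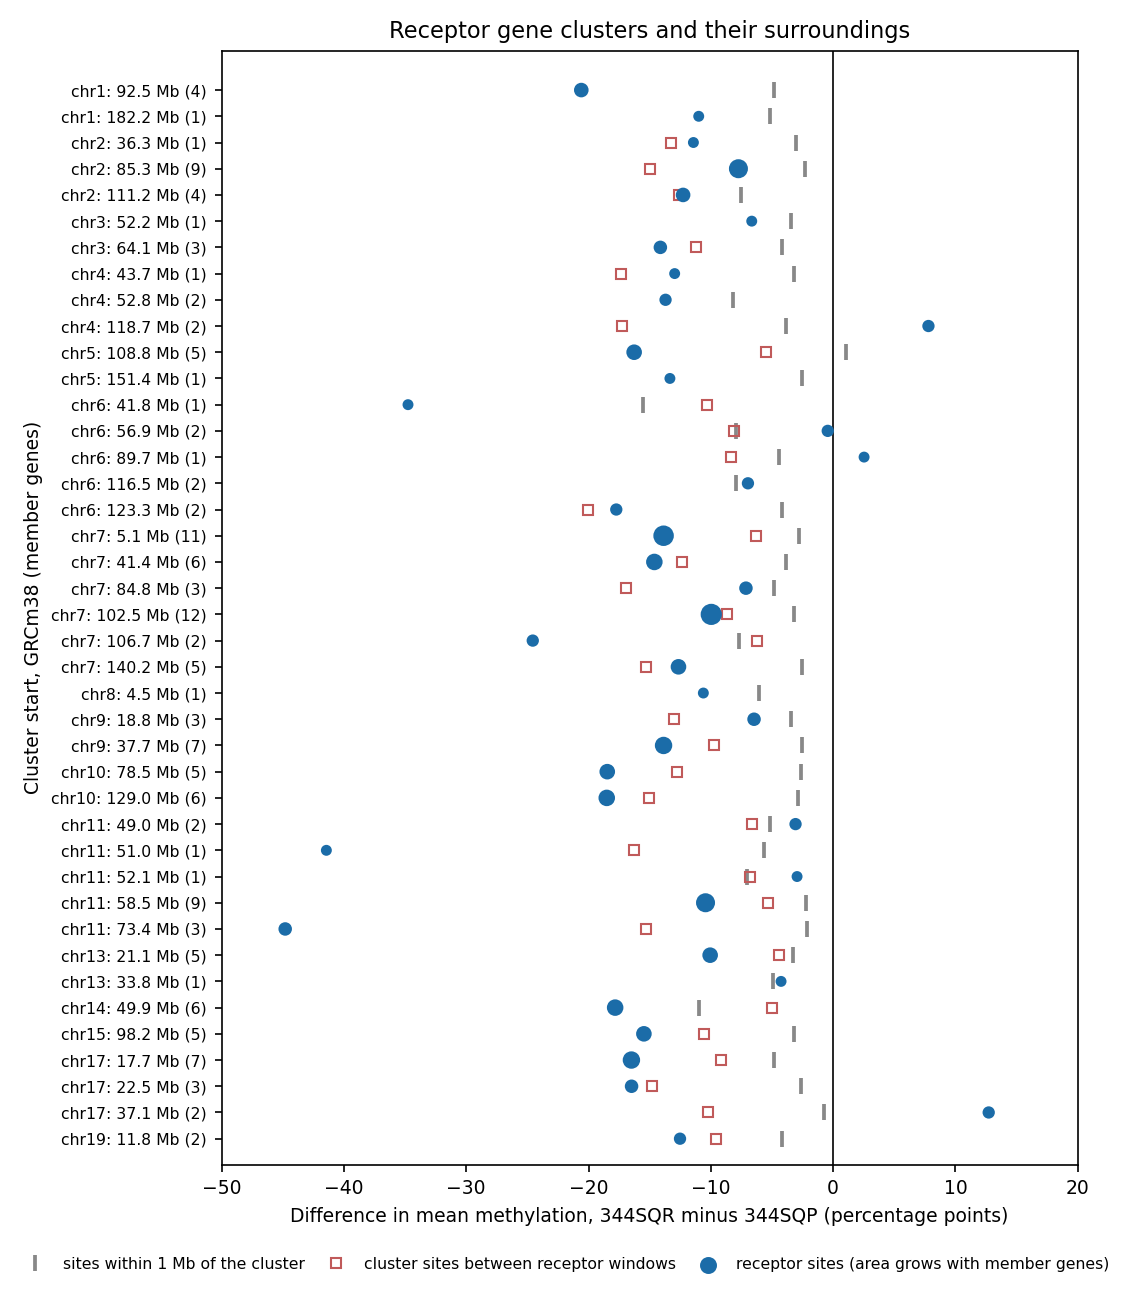
Change in mean methylation from 344SQP to 344SQR, in percentage points (horizontal axis), for the 41 clusters with a member, by start on GRCm38; filled circles are receptor sites, open squares sites between receptor windows and bars sites within 1 Mb. Receptor sites were lower in 344SQR in 38 clusters and fell further than the flanking sites in 33.

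Of the 14 clusters with 5 or more members, the class I cluster (chr7:102476579-105369355, GRCm38) was the one with the most members. The cluster next in members, on the proximal part of the same chromosome (chr7:5129291-13244362), holds genes of all 3 families. Its 38 sites averaged 90.1% and 89.6% in 344SQP and 81.2% and 70.9% in 344SQR, and 6 of its 11 members were called lower, where 49.5% of all genes were. A cluster of Vmn2r genes only (chr7:41395945-42933822) had all 6 members called lower, with site means of 86.2%, 80.9%, 77.0% and 60.9%. On chromosome 17 (chr17:17703747-21323766) all 7 members of a Vmn1r and Vmn2r cluster were lower, with means of 85.3%, 83.7%, 72.0% and 63.9%. The steepest of the 14 was an Olfr and Vmn2r cluster (chr10:128989431-130497396) at -18.51 points. Another cluster of these families on the same chromosome (chr10:78517428-79493585) was nearly level with it at -18.47. The shallowest was the cluster with the most annotated genes, 287 Olfr genes (chr2:85330779-90403897), at -7.74 points with 6 of 9 members called lower. There the 149 sites between windows changed by -15.0 points, more than the receptor sites did. Only the cluster on chromosome 9 (chr9:37708964-40190134) of these 14 had overlapping lines, with 81.7% and 64.5% in 344SQP and 71.1% and 47.3% in 344SQR, and 3 of 7 members called lower.

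Over all clusters the change ran from -44.8 to 12.7 points. The lowest belonged to 3 Olfr members on chromosome 11 (chr11:73350783-74366218), whose 6 sites averaged 79.6% and 75.5% in 344SQP and 40.1% and 25.4% in 344SQR. Sites between the windows of that cluster changed by -15.3 points and those outside it by -2.13. The highest belonged to 2 Olfr members on chromosome 17 (chr17:37083871-38336643), with 27.5% and 45.6% in 344SQP and 34.7% and 63.9% in 344SQR. Lines overlapped there.

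Among members with 3 or more sites, the largest fall was in Olfr408-ps1 (ENSMUSG00000082378, chr11:74298133-74299073), a pseudogene of an odorant receptor. Its 3 sites averaged 82.6% and 83.6% in 344SQP and 41.6% and 24.6% in 344SQR (likelihood ratio test, adjusted p 1.06e-44). Olfr54 (ENSMUSG00000059397), an odorant receptor gene at chr11:51014236-51031578, had 75.4% and 71.2% in 344SQP and 42.1% and 21.6% in 344SQR at 3 coding sites (adjusted p 9.05e-27). In both genes each site fell and the tumors of the lines stood far apart. Vmn2r95 (ENSMUSG00000091631, chr17:18424078-18460905), a vomeronasal receptor of the second family, went from 88.6% and 96.8% to 67.3% and 46.5%. Olfr1417 (ENSMUSG00000048292, chr19:11826803-11839219), an odorant receptor gene read at 3 intronic sites, went from 78.8% and 58.9% to 49.7% and 24.2%. The spread within a line was wide there, 14.0 and 18.0 points (SD). Olfr30 (ENSMUSG00000043314, chr11:58454105-58462270), an odorant receptor gene, had 81.3%, 57.2%, 44.0% and 31.9% at 4 coding sites, 3 of which fell. Its change of -31.3 points shrank to -12.6 with reads pooled over sites, and at a coverage minimum of 50 reads it was -8.10 and the call was lost. Vmn2r80 (ENSMUSG00000091888, chr10:79148769-79195012), again of the second vomeronasal family, had 91.1% and 89.2% in 344SQP and 75.5% and 49.6% in 344SQR. Without a replicate block, edgeR calls none of these 6 genes at an adjusted p under 0.05. With the block it calls all but Olfr30, though the labels tie the replicate numbers to no shared batch. All 4 sites of Vmn2r80, all 3 of Vmn2r95 and 2 of the 3 of Olfr1417 lay in masked repeats. None of the sites of Olfr408-ps1, Olfr54 and Olfr30 did.

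The stretches below show what such a site looks like in the falling genes and in a gene that stayed high. Each is read on the strand of the gene from GRCm38, and capitals mark the CpGs that were measured: chr11:74298372-74298429 (minus strand), chr11:51027657-51027720 (plus) and chr6:89853197-89853301 (minus).
Olfr408-ps1: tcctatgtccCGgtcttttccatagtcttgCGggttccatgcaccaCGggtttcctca
Olfr54: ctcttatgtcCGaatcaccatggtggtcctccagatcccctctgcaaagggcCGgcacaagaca
Vmn1r42: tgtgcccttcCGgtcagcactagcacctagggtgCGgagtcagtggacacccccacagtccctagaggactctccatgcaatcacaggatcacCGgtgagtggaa
The stretches hold 3 CpGs in 58 bp, 2 in 64 bp and 3 in 105 bp, and only the last kept its methylation. Up to 250 bp on either side of the sites of these genes, the median was 6, 6 and 9 CpGs. Each gene had 3 sites, of which 2 lay in masked repeats in Vmn1r42 and none in Olfr408-ps1 or Olfr54. The contrast is thus also one between repeat and other sequence.

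Vmn1r42 (ENSMUSG00000068232, chr6:89842573-89876413), a vomeronasal receptor gene of the first family, was with Olfr275 the most highly methylated member with 3 or more sites. It had 97.1% and 95.3% in 344SQP and 98.7% and 98.8% in 344SQR, and was called higher (likelihood ratio test, adjusted p 0.00196). The call was lost without 344SQP replicate 2. Vmn1r4 (ENSMUSG00000071893, chr6:56924015-56958100), of the same family, was also called higher, with 0.876% and 0.538% in 344SQP and 0.922% and 1.09% in 344SQR. All 63 of its sites lie in the promoter of Nt5c3, a gene for a nucleotidase, so they describe an unmethylated CpG-dense promoter rather than a silent receptor gene, and the change of 0.301 points is small. The call (likelihood ratio test, adjusted p 0.0289) was lost without 344SQP replicate 2 and without either 344SQR tumor, and edgeR did not make it. A stretch of it, with 25 CpGs in 149 bp, is shown for contrast with those above (chr6:56923784-56923932, plus strand, measured CpGs in capitals).
Vmn1r4: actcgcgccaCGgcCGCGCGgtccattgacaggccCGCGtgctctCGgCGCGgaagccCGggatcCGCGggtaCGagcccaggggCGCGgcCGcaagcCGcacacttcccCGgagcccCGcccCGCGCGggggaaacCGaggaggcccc

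The other 3 members called higher were chosen after their values were seen. Olfr94 (ENSMUSG00000043827, chr17:37196425-37200994), an odorant receptor gene with 11 coding sites in CpG-dense sequence, had 20.9% and 41.4% in 344SQP and 28.8% and 61.0% in 344SQR. Olfr1342 (ENSMUSG00000043383, chr4:118687486-118692756), also an odorant receptor gene, had 61.9%, 77.8%, 73.9% and 89.9%. In both genes the lines overlapped, and replicate 2 lay above replicate 1 in each line. Olfr315 (ENSMUSG00000056959, chr11:58773188-58780251), an odorant receptor gene read at 2 sites, had 88.7% and 87.7% in 344SQP and 95.5% and 94.3% in 344SQR without overlap.

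**Figure D4:**
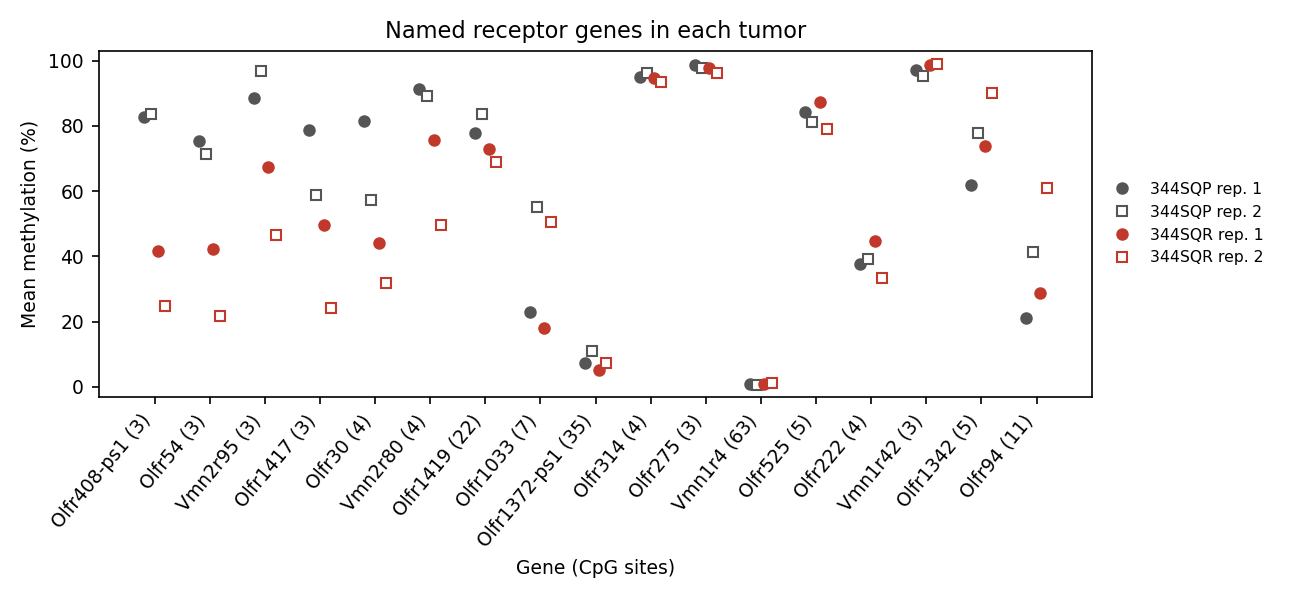
Mean methylation in percent (vertical axis) of named receptor genes in the 4 tumors, with the number of CpG sites in parentheses; circles are replicate 1, open squares replicate 2, gray 344SQP and red 344SQR. Olfr408-ps1 and Olfr54 fall below 45% in both 344SQR tumors, and Olfr94 and Olfr1342 rise with overlap.

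Genes with the most sites include Olfr1372-ps1 (ENSMUSG00000108218, chr11:52154722-52168159), a transcribed pseudogene with 35 sites in CpG-dense sequence at its own start. It was low in every tumor, at 7.34% and 11.1% in 344SQP and 5.19% and 7.31% in 344SQR, and was called lower (likelihood ratio test, adjusted p 2.45e-07). Olfr1419 (ENSMUSG00000067545, chr19:11868613-11875106), an odorant receptor gene with 22 sites, had 77.8% and 83.8% in 344SQP and 72.9% and 69.0% in 344SQR. Its sites ranged from -39.7 to 4.97 points of change, so a gene mean can hide unlike sites. Olfr275 (ENSMUSG00000089717) and Olfr314 (ENSMUSG00000059504), odorant receptor genes that were highly methylated throughout, were not called. Olfr275 had 98.6%, 97.6%, 97.6% and 96.3%, and Olfr314 had 94.9%, 96.2%, 94.8% and 93.3%.

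Olfr1033 (ENSMUSG00000045392, chr2:86020633-86045171), an odorant receptor gene read mostly upstream of its TSS, was split by replicate number and not by line. It had 23.0% and 55.2% in 344SQP and 18.1% and 50.6% in 344SQR, and was not called (likelihood ratio test, adjusted p 0.0691). The smallest changes besides Vmn1r4 were in Olfr525 (ENSMUSG00000061489) and Olfr222 (ENSMUSG00000059610), both odorant receptor genes. Olfr525 had 84.3%, 81.2%, 87.4% and 79.2%, and Olfr222 had 37.5%, 39.3%, 44.7% and 33.5%. In both, the 344SQR tumors lay on either side of the 344SQP tumors.

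Genes of the olfactory signaling and receptor-choice pathway were taken from a fixed list of 35, of which 30 could be tested. The likelihood ratio test called 18 of them lower, where 49.5% of all genes were, 3 higher and 9 in neither direction, with a median change of -1.66 points. The median change was -1.12 points for all genes and -13.1 for the receptor genes, and differences between these groups were not tested. In 344SQP the pathway genes had a mean of 37.2%, against 78.7% for the receptor genes. Adcy3, the adenylyl cyclase downstream of odorant receptors, had 31.1% and 41.6% in 344SQP and 23.1% and 21.7% in 344SQR. Ano2, the chloride channel of olfactory cilia, had 73.9%, 70.6%, 65.6% and 52.6%. Omp, the marker protein of mature olfactory neurons, stayed high at 97.1%, 94.1%, 95.3% and 93.2%. The 3 called higher were Lhx2, a transcription factor of olfactory neurons, Slc17a6, a glutamate transporter, and Gnal, the G protein of odorant receptors. The lines overlapped in all 3, and their promoters changed by -2.33 points in Lhx2, 3.53 in Slc17a6 and 3.13 in Gnal. Of 65 taste, trace amine and formyl peptide receptor genes, 5 could be tested; all 5 had a lower mean in 344SQR and 4 were called lower, where 49.5% of all genes were. Their means were 65.1% and 68.5% in 344SQP and 64.5% and 63.0% in 344SQR.

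Cell content was looked at through promoters of marker genes, which did not move as one. Epithelial markers, 5 of 8, had promoter means of 12.6%, 12.2%, 13.6% and 10.1%. Of these 5 promoters 3 were called lower and 1 higher, where 29.0% and 8.67% of all promoters were. Cldn4, a tight junction gene, fell the most, by 9.15 points, and Epcam, an epithelial adhesion gene, rose by 11.5 points. The lines overlapped in Cldn4 and not in Epcam. Endothelial and fibroblast markers, 3 of 6, had 42.0%, 46.6%, 38.9% and 49.0%, with a median change of -2.87 points. Of the 3, none was called lower, and Kdr, a receptor gene of endothelium, was called higher with a rise of 8.23 points. The lines overlapped in Kdr, with 8.48% and 13.2% in 344SQP and 11.4% and 26.8% in 344SQR. Of 10 leukocyte markers, 2 had a promoter that could be read, and only Cd3e is described here. The promoter of Cd3e, a T cell gene, was read at 2 sites. It had 81.1% and 75.8% in 344SQP and 81.5% and 46.6% in 344SQR, and was called lower. The lines overlapped there, with the lowest value in 344SQR replicate 2 and the highest in 344SQR replicate 1. These marker genes were singled out after their values were seen, and the part of cell content in the receptor values was not tested.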

How the data were processed

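The authors trimmed reads with Trim Galore 0.4.1 and cutadapt 1.9.1, aligned them to mm10 with Bismark and Bowtie 1.1.2, and deposited per CpG site the coverage and the percent of methylated and of unmethylated reads for methylKit. From the deposited coverage and percent values, counts of methylated reads per site were recomputed here. Each strand of a CpG was a site, and sites with 20 or more reads in all 4 tumors were kept. Windows came from the GENCODE vM21 basic annotation on GRCm38, the same assembly as mm10. Members and lists were chosen with earlier results of these data known. The main test was a likelihood ratio test per site with the line as the only factor, as in methylKit, combined per gene by Stouffer's z score and adjusted by Benjamini-Hochberg over all genes, with calls at an adjusted p under 0.05. edgeR 4.0.16 was run on methylated and unmethylated counts per gene. Genes were named by a fixed rule among members with 3 or more sites: the 6 largest falls and up to 4 largest rises among called genes without overlap, the 3 with most sites, the 3 highest, the 3 lowest and the 3 smallest differences.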

Additional observations from a re-analysis of the deposited data

How the results depend on the processing

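The gene mean, the site mean and its gap to the comparison sites each stayed lower in 344SQR under the 12 alternatives run for it. The 12 were not the same for each. The change of the gene mean ranged from -20.9 to -9.74 points. The promoter window alone left 27 receptor genes to test: 16 were lower, 2 higher and 13 lower without overlap, where 29.0%, 8.67% and 32.1% of all genes were. The site mean then changed by -4.60 points and the gap by -1.25, a gap that sets promoter sites against sites outside promoters; promoters of other genes changed by -0.364. edgeR without a replicate block called 0 lower and 0 higher. Further alternatives were chosen after seeing the data. At an unadjusted edgeR p under 0.05, 44 receptor genes were lower and 1 higher, where 12.2% and 0.445% of all genes were. Among the 77 receptor genes with at least 3 sites, 63 were lower and 54 lower without overlap (49.4% and 46.0% of all such genes). Against intergenic sites the gap changed by -2.12 points. Apart from fewer genes or another comparison class, the cause of each was not tested.

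Leaving out each tumor in turn gave 91 to 119 genes lower, 3 to 5 higher, 106 to 134 lower without overlap, where the shares of all genes were 39.4 to 50.6%, 3.95 to 11.5% and 57.9 to 63.2%. The same runs gave changes of the site mean of -14.5 to -7.01 points, of the gene mean over the same range as above, of the gap of -10.7 to -4.02 and of the cluster median of -17.2 to -7.43. Olfr1033 reversed, ranging from -21.0 to 11.4 points. For the 15 named genes, 193 of 225 values kept direction and side of the threshold, 21 were weaker, 4 stronger, 5 moved and 2 reversed; for edgeR these compare the sign of its log2 fold change.

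Both lines have replicates 1 and 2, which the labels do not tie to a shared batch. With the replicate block, edgeR called 55 receptor genes lower and 0 higher, where 17.2% of all genes were lower and 1.85% higher. Of the 6 largest falls it called all but Olfr30 (edgeR adjusted p 0.209). Deviations of same-numbered tumors correlated across the 150 receptor genes with r of 0.485, and across all genes with 0.638.

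Depth limits single sites: at 20 reads a single read moves a site by 5 points.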

Other observations

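Receptor genes that failed the coverage rule were read thinly. In their windows, all reads pooled over the sites listed for each tumor gave 77.3% (95% Wilson interval 75.8 to 78.8) and 70.6% (69.2 to 71.9) in 344SQP, and 70.7% (69.3 to 71.9) and 43.2% (42.4 to 44.1) in 344SQR. These rest on 2984, 4369, 4747 and 14208 reads. The sites differ between tumors, so the values are not a matched comparison. At the 186 sites read in all 4 tumors the pooled values were 79.9%, 74.6%, 74.9% and 47.5%, so there only 344SQR replicate 2 lay below both 344SQP tumors. At the 40 of these sites with 5 or more reads in every tumor they were 81.6%, 79.3%, 76.0% and 54.3%, with both 344SQR tumors below both 344SQP tumors. A receptor gene had at least 1 listed site in 771, 775, 881 and 1374 cases in the order of the tumors.

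CpG calls on chromosome Y numbered 47437 and 35071 in 344SQP and 89028 and 31130 in 344SQR, beside 114884901, 136525741, 158029080 and 172601241 calls on autosomes, in tumors grown in female mice.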
